A study of Homo sapiens with 7 samples.

Results

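The sarcoplasmic reticulum calcium cycling genes described here were RYR2, CASQ2, TRDN, ASPH, HRC, JPH2, ATP2A2, PLN, SLC8A1 and CAMK2D. They are 10 of the 60234 genes of the deposited expression table and were chosen by name, for their known part in calcium release, storage and removal, and not by a value. RNA came from cardiomyocytes made with small molecules from WTC-11, a single human induced pluripotent stem cell line, and matured for 35 days. All cells received an antisense oligonucleotide (ASO), a short strand made to bind 1 RNA by base pairing, at 2 uM for 96 h. The 3 control libraries received a scrambled ASO and the other 4 an ASO against MYH7B, a myosin gene that the study title calls a regulatory long noncoding RNA. Levels are given as TPM, a share of all transcripts in a library corrected for transcript length, so they can be compared between genes. No label says that the libraries came from separate differentiations, so p-values measure only the spread between these libraries.

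In a heart muscle cell, calcium entering through L-type channels opens the ryanodine receptor RYR2 in the facing membrane of the sarcoplasmic reticulum, and the calcium released there starts contraction. CASQ2 holds calcium inside the store, TRDN and the junctin product of ASPH tie CASQ2 to RYR2, and JPH2 holds the surface membrane and the store membrane together. ATP2A2 encodes the SERCA pump that refills the store, PLN inhibits that pump, SLC8A1 is the surface exchanger that removes calcium from the cell, and CAMK2D is a kinase that acts on both release and uptake.

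In the deposited table, MYH7B ASO replicate 1 is out of row register. The fit therefore used scrambled ASO replicates 1 to 3 and MYH7B ASO replicates 2 to 4, and replicate 1 was put back in order and is given beside them. Once reordered, it correlated with the rest across genes at a median of 0.955, and the rest with each other at 0.959 to 0.979. It still stood apart, with 17.2% of its TPM in mitochondrially encoded genes against 27.4% to 33.6% in the others, and it was the lowest of 7 libraries for 8 of the 10 calcium cycling genes. MYH7B itself had 23.0, 36.5 and 25.1 TPM with the scrambled ASO and 9.30, 5.65 and 6.31 TPM in MYH7B ASO replicates 2 to 4 (log2 fold change -1.85, limma adjusted p = 0.0109). The 8 cardiomyocyte markers were present in every library. Their sum was 8315 to 9636 TPM in the scrambled group and 7025 to 9402 TPM in MYH7B ASO replicates 2 to 4. Most of it was MYL7, which averaged 5204 and 4159 TPM. MYL7, ACTN2 (200.1 and 142.9 TPM) and TNNI3 (208.1 and 161.9 TPM) lay below all controls in replicates 2 to 4. TNNI1 (1198 and 1662 TPM) lay above all controls, and the rest of the list overlapped them. The 8 fibroblast markers summed to 2881 to 5173 TPM and 1344 to 2071 TPM, and the 4 smooth muscle markers to 934 to 1330 TPM and 543.5 to 723 TPM, so both sums lay below the controls in MYH7B ASO replicates 2 to 4. In replicate 1 the sums were 4069 and 1075 TPM, inside the control ranges. Single smooth muscle markers went different ways. MYH11 averaged 70.1 TPM with the scrambled ASO and 12.9 TPM in replicates 2 to 4, and had 13.4 TPM in replicate 1. CNN1 averaged 181.7 and 214.6 TPM, with overlap, and had 247.7 TPM in replicate 1. The fibroblast sum was mostly collagen RNA: COL1A1 averaged 1667 and 796.5 TPM, while PDGFRA (23.7 and 36.3 TPM) and TCF21 (8.40 and 14.4 TPM), markers of the same list, lay above all controls in replicates 2 to 4. Endothelial markers reached at most 10.4 TPM in these 6 libraries, epithelial and endoderm markers 17.9 TPM and pluripotent markers 3.73 TPM. The 5 skeletal muscle markers summed to 369.5 to 503.6 TPM and 250.7 to 423.1 TPM. That sum was mostly CKM, which averaged 403.5 and 351.5 TPM, and ACTA1 averaged 28.3 and 10.3 TPM. The other skeletal markers were near the floor: MYOD1 averaged 0.98 and 0.65 TPM, MYOG 0.53 and 0.49 TPM, and MYF5 was listed at 0 in all 7. The part of these other cell types in the values below was not tested. In bulk RNA, fewer cells of a type and less RNA per cell cannot be told apart.

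Across the group the direction was uneven: the release channel and its calcium buffer had values below all controls with the MYH7B ASO, while those of the pump and of the luminal protein HRC overlapped the controls. RYR2 averaged 34.1 ± 5.95 TPM with the scrambled ASO and 16.3 ± 3.32 TPM with the MYH7B ASO (SD, n = 3 each), and CASQ2 7.75 ± 1.95 TPM and 2.76 ± 0.81 TPM. ATP2A2 had 415 ± 51.9 TPM and 403 ± 26.5 TPM. None of the 10 genes passed limma at an adjusted p under 0.05, where 1.66% of the 15988 genes tested did. At an unadjusted p under 0.05 in limma, 4 were lower and 1 was higher, beside 10.6% and 4.67% of all tested genes. In 6 of the 10 every MYH7B ASO library lay below every scrambled library, which held for 14.1% of all tested genes, and none lay wholly above, which held for 7.11%. Over 7 libraries the counts were again 0 called in limma (1.07% of all genes) and 6 wholly below (10.2%). Their median log2 fold change was -0.35, and that of all tested genes was -0.04. It was -0.59 with replicate 1 (all genes -0.05) and -0.23 after centring on cardiomyocyte markers (all genes 0.08). In the authors' deposited table, RYR2, CASQ2 and SLC8A1 were called lower and HRC higher at an adjusted p under 0.05, where 5.69% and 3.02% of the genes with an adjusted p were. That table comes from the same series and is no independent replication.

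**Figure D1:**
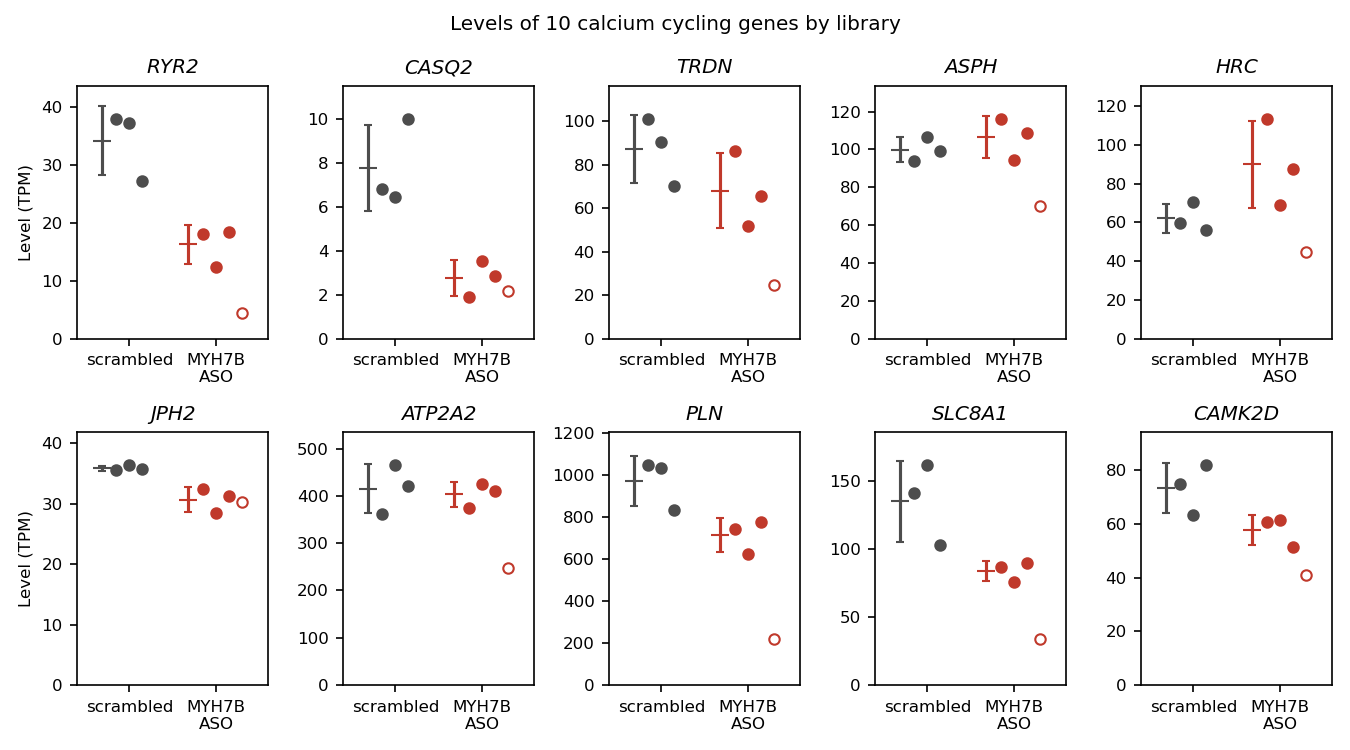
Level of each of the 10 genes (TPM, linear axes from 0) by library; filled points are the 3 scrambled libraries (grey) and MYH7B ASO replicates 2 to 4 (red), open circles are the reordered MYH7B ASO replicate 1, and bars are the mean ± SD of the filled points. RYR2, CASQ2, PLN, SLC8A1, JPH2 and CAMK2D show no overlap between the groups, while the ATP2A2 and ASPH groups lie over each other.

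Upstream sequences are stretches where heart transcription factors could bind. They are shown for RYR2, CASQ2 and PLN, 3 of the 6 genes whose groups did not overlap. That of HRC, which had the highest log2 fold change of the 10, is shown too. Each printed stretch holds a motif match, so the choice says nothing on how motifs go with the differences. SLC8A1, also without overlap and with matches to AGATAA and TATAAA, is not printed. They are RefSeq promoter sequences on GRCh38.p14, written 5′ to 3′ on the strand of the gene and cut before the first transcribed base. Capitals mark the match to 1 motif on the opposite strand: CATTCC, the TEAD core, in RYR2 and HRC, the MEF2 motif in CASQ2, and AGATAA, known from factors of the GATA family, in PLN.
RYR2, chr1:237041934-237042183, plus strand: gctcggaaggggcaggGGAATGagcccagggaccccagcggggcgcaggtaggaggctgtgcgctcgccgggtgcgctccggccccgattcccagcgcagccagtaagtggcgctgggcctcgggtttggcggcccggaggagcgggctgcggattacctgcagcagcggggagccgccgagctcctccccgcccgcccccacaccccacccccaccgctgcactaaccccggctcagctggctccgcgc
HRC, chr19:49155425-49155646, minus strand: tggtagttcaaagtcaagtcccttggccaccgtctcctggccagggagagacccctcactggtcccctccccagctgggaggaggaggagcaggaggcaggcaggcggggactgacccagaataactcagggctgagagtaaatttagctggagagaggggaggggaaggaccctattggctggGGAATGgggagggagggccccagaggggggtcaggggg
CASQ2, chr1:115768782-115768964, minus strand: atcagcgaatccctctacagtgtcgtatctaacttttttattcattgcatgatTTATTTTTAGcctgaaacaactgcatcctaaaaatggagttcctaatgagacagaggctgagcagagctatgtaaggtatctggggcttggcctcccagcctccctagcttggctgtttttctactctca
PLN, chr6:118548046-118548295, plus strand: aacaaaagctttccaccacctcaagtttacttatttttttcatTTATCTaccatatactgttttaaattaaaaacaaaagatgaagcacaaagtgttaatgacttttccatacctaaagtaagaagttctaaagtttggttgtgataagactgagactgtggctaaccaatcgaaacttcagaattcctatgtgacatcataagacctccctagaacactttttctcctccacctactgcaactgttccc
The matches begin 234 bases before the RefSeq start of RYR2, 66 before that of HRC, 197 before that of CASQ2 and 207 before that of PLN. RefSeq had promoters for 9 of the 10 genes, 12 promoters in all, each from 250 bases before to 50 bases after a start. On either strand, CATTCC was in 2 of the 12 and in 14% of 35116 human promoters of the same length, AGATAA in 2 and 10.3%, the MEF2 motif in 2 and 1.86%, and TATAAA in 1 and 11.5%. RYR2 and HRC held CATTCC, SLC8A1 and PLN held AGATAA, and CASQ2 and ATP2A2 held the MEF2 motif. The RYR2 stretch was 75.2% G and C and the PLN stretch 34.8%. A match of letters is a description and not a bound site.

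RYR2 (ENSG00000198626.17), the calcium release channel, spans 791.8 kb of chromosome 1 (237042205 to 237833988, plus strand, GENCODE 29 on GRCh38). RYR2 had 37.9, 37.2 and 27.3 TPM in scrambled replicates 1 to 3 and 18.0, 12.4 and 18.3 TPM in MYH7B ASO replicates 2 to 4. The groups did not overlap, and the reordered MYH7B ASO replicate 1 was lower still, at 4.39 TPM. The log2 fold change was -1.03, standard error 0.21, just outside the threshold (limma adjusted p = 0.0536). It passed when only genes averaging 5 TPM or more were tested (limma adjusted p = 0.0267) and with sample weights (0.0479). Adding replicate 1 gave -1.45 (limma adjusted p = 0.169), and over 20 alternative settings the limma adjusted p ranged from 0.0267 to 0.7215. The authors' deposited table gave -0.84 (standard error 0.18) at an adjusted p-value of 0.000232, on a mean normalized count of 3680. RYR2 held 94.3% to 97.8% of the TPM of the ryanodine receptor family with the scrambled ASO and 96.0% to 98.5% in MYH7B ASO replicates 2 to 4, so it was almost the whole family in both groups.

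CASQ2 (ENSG00000118729.11), calsequestrin, the calcium buffer of the store, lies on chromosome 1 (115700007 to 115768781, minus strand). It had 6.82, 6.43 and 9.99 TPM with the scrambled ASO and 1.90, 3.52 and 2.85 TPM with the MYH7B ASO. All 3 treated libraries lay below all controls, as did replicate 1 at 2.16 TPM. Its log2 fold change of -1.22 (standard error 0.26) was the lowest of the 10 and missed the threshold (limma adjusted p = 0.0637). The authors' deposited table gave -0.97 at an adjusted p-value of 0.00117, on a mean normalized count of 266, the smallest of the 10. CASQ2 took 37.1%, 34.7% and 50.8% of the summed TPM of CASQ1 and CASQ2 with the scrambled ASO and 15.2%, 30.2% and 20.6% with the MYH7B ASO. CASQ1, the calsequestrin known from skeletal muscle, was therefore the more abundant of the pair in 5 of these 6 libraries.

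TRDN (ENSG00000186439.14), triadin, anchors CASQ2 at the release channel and lies on chromosome 6 (123216339 to 123637093, minus strand). It had 101, 90.6 and 70.3 TPM with the scrambled ASO and 86.3, 51.9 and 65.8 TPM with the MYH7B ASO. MYH7B ASO replicate 2 lay inside the scrambled range, so the groups overlapped, and the log2 fold change of -0.37 (standard error 0.21) did not pass (limma adjusted p = 0.463). With replicate 1, at 24.6 TPM, the change was -0.72 and the adjusted p in limma 0.431, and without MYH7B ASO replicate 3 it was -0.19. TRDN-AS1, a transcript on the opposite strand, had 6.56% of the mean TPM of TRDN.

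ASPH (ENSG00000198363.18), on chromosome 8, encodes junctin and also the enzyme aspartate beta-hydroxylase, and a gene level does not separate these products. Its levels were 93.6, 107 and 99.1 TPM with the scrambled ASO and 116, 94.3 and 108 TPM with the MYH7B ASO. These ranges overlapped, the log2 fold change was 0.09, standard error 0.13 (limma adjusted p = 0.807), and with replicate 1, at 70.3 TPM, its sign turned (-0.06).

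HRC (ENSG00000130528.12), the histidine-rich calcium-binding protein of the store, lies on chromosome 19 (49151198 to 49155424, minus strand) and is the shortest gene of the 10. It had 60.0, 70.3 and 55.9 TPM with the scrambled ASO and 113.5, 69.0 and 87.6 TPM with the MYH7B ASO. MYH7B ASO replicates 2 and 4 lay above all controls, and replicate 3 lay just below the highest control. The log2 fold change of 0.51 (standard error 0.20) did not pass (limma adjusted p = 0.270), and it was 0.26 with replicate 1, whose 44.5 TPM was the lowest value of all, and 0.33 without MYH7B ASO replicate 2. The authors' deposited table called HRC higher, with 0.52 at an adjusted p-value of 0.0336.

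JPH2 (ENSG00000149596.6), junctophilin, which bridges the surface and store membranes, lies on chromosome 20 (44111695 to 44187578, minus strand). The scrambled libraries had 35.5, 36.3 and 35.7 TPM and the MYH7B ASO libraries 32.5, 28.4 and 31.2 TPM. The control values were the tightest of any of the 10 genes, with an SD of 0.43 TPM, and all treated values lay below them. The difference was small on the log2 scale, -0.22, standard error 0.13 (limma adjusted p = 0.490), and replicate 1 was close to the others at 30.3 TPM.

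ATP2A2 (ENSG00000174437.17), the SERCA pump that takes calcium back into the store, lies on chromosome 12 (110280756 to 110351093, plus strand). It had 361, 464 and 420 TPM with the scrambled ASO and 374, 425 and 411 TPM with the MYH7B ASO. The treated values all fell inside the control range, and the log2 fold change was -0.04, standard error 0.13 (limma adjusted p = 0.926), with a sign that changed under other scalings (0.021 after median-ratio rescaling). Replicate 1 stood below the rest at 246 TPM. ATP2A2 made up 98.3 ± 0.11% of SERCA family TPM in the scrambled group and 99.0 ± 0.57% in the treated group (SD, n = 3 each).

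PLN (ENSG00000198523.6), phospholamban, the inhibitor of that pump, lies on chromosome 6 (118548298 to 118560730, plus strand) and was the most abundant of the 10. Its levels were 1045, 1032 and 835 TPM with the scrambled ASO and 741, 622 and 777 TPM with the MYH7B ASO. The groups did not overlap, and the log2 fold change was -0.44, standard error 0.14 (limma adjusted p = 0.188). Replicate 1, at 220 TPM, was far below the other MYH7B ASO libraries, and with it the change was -0.86 and the limma adjusted p 0.388. The authors' deposited table gave -0.33 at an adjusted p-value of 0.195.

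SLC8A1 (ENSG00000183023.18), the sodium-calcium exchanger, lies on chromosome 2 (40097270 to 40611053, minus strand). It had 141, 161 and 103 TPM with the scrambled ASO and 86.9, 75.5 and 89.5 TPM with the MYH7B ASO. All treated libraries lay below all controls, and replicate 1 had 33.6 TPM. The log2 fold change was -0.66, standard error 0.18 (limma adjusted p = 0.139). SLC8A1 was at -0.54 in the authors' deposited table, at an adjusted p-value of 0.0285. SLC8A1-AS1, an antisense RNA on the opposite strand of the same locus, had 85.0% of the mean TPM of SLC8A1 and a log2 fold change of -0.65. The strand setting of the counting is not given in the sources used here. Reads from the stretch where both genes overlap may therefore be assigned to either, and their share was not measured. SLC8A1 held 99.0 ± 0.39% and 98.2 ± 0.88% of the exchanger family (SD, n = 3 each), so its relatives were nearly absent in both groups.

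CAMK2D (ENSG00000145349.17), the main calcium/calmodulin-dependent kinase of heart muscle, lies on chromosome 4 (113451032 to 113761927, minus strand). It had 74.8, 63.2 and 81.7 TPM with the scrambled ASO and 60.7, 61.4 and 51.4 TPM with the MYH7B ASO. Every treated library was below every control, by a narrow margin of 61.4 against 63.2 TPM. The log2 fold change was -0.33, standard error 0.15 (limma adjusted p = 0.346). CAMK2D was 68.2 ± 2.21% of CAMK2 family TPM in the scrambled group and 66.6 ± 3.89% in the treated group (SD, n = 3 each), overlapping ranges. Its relative CAMK2G went from 15.1%, 13.6% and 14.7% of the family to 5.62%, 6.18% and 6.76%, with no overlap.

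**Figure D2:**
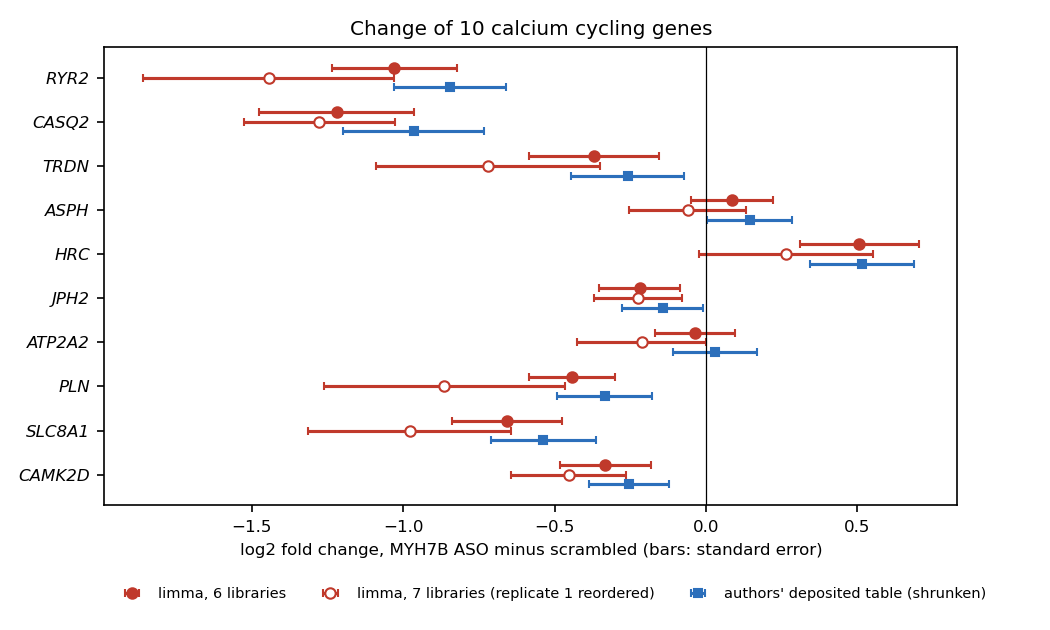
Difference between the groups on the log2(TPM + 1) scale (MYH7B ASO minus scrambled) for each of the 10 genes, from limma over 6 libraries with its standard error, beside the value with the reordered MYH7B ASO replicate 1 and the value in the authors' deposited table. CASQ2 (-1.22) and RYR2 (-1.03) stand lowest and HRC (0.51) highest.

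By level, PLN and then ATP2A2 led in both groups and RYR2 and CASQ2 were last in both. With the scrambled ASO the order was PLN, ATP2A2, SLC8A1, ASPH, TRDN, CAMK2D, HRC, JPH2, RYR2 and CASQ2. Neighbours from SLC8A1 to HRC overlapped in their ranges, as did JPH2 and RYR2, so only PLN, ATP2A2, the break between HRC and JPH2, and CASQ2 were set apart. With the MYH7B ASO, SLC8A1 stood behind ASPH and HRC and overlapped with HRC, and JPH2 and RYR2 were now separate, at 28.4 to 32.5 TPM against 12.4 to 18.3 TPM.

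Ratios within a library compare the RNA levels of pairs of genes and need no scaling between libraries. They come from bulk RNA and do not measure the balance of the proteins. They are given as values, since a comparison of 3 libraries with 3 cannot go below a 2-sided exact p of 0.1. The log2 ratio of PLN to ATP2A2, inhibitor to pump, was 1.53, 1.15 and 0.99 with the scrambled ASO and 0.99, 0.55 and 0.92 with the MYH7B ASO. The groups only just failed to overlap, with MYH7B ASO replicate 2 and scrambled replicate 3 both at 0.99 after rounding, and the means differed by -0.41. Replicate 1, at -0.17, was the only library with more ATP2A2 than PLN. The log2 ratio of ATP2A2 to SLC8A1, refilling to extrusion, was 1.36, 1.53 and 2.04 with the scrambled ASO and 2.10, 2.49 and 2.20 with the MYH7B ASO. Here too the groups did not overlap, the means differed by 0.63, and replicate 1 was highest at 2.87. The SLC8A1 levels in this ratio carry the limit given above for the overlap with SLC8A1-AS1. The log2 ratio of CASQ2 to RYR2, buffer to channel, was -2.48, -2.53 and -1.45 against -3.24, -1.82 and -2.68. These ranges overlapped, so the lower levels of both genes left no clear difference in their ratio (-0.43, and -0.04 with replicate 1).

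**Figure D3:**
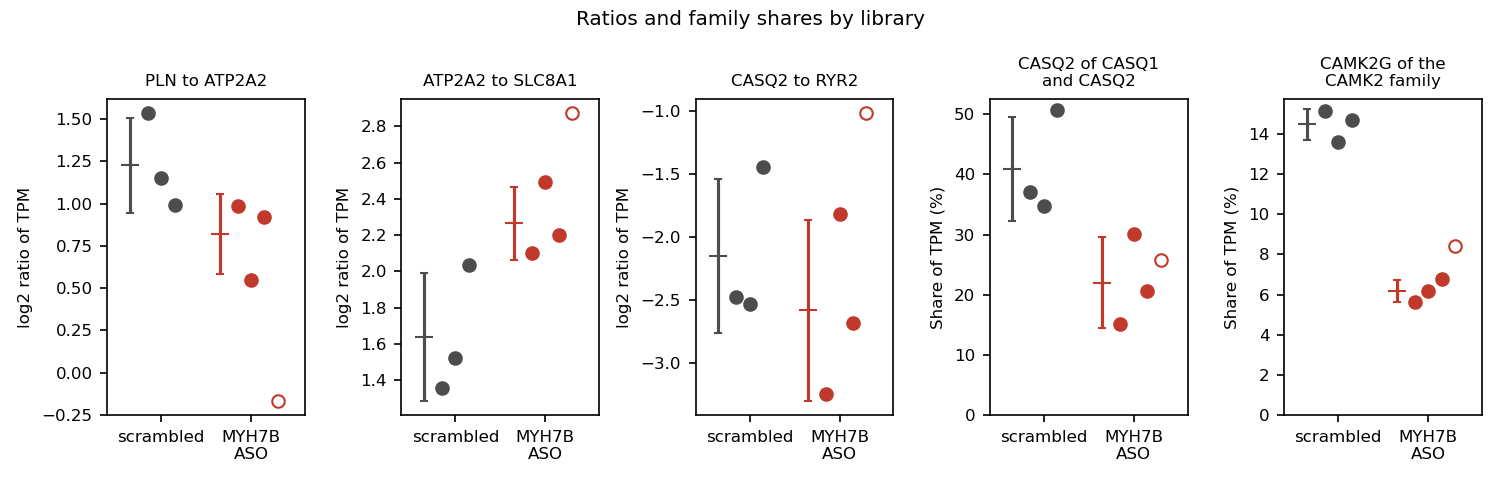
Log2 ratio of TPM in each library for 3 pairs of genes, and the share (%) of CASQ2 in the calsequestrins and of CAMK2G in the CAMK2 family; bars are the mean ± SD of the filled points, filled points are the scrambled libraries and MYH7B ASO replicates 2 to 4, and open circles the reordered MYH7B ASO replicate 1. The groups overlap for CASQ2 to RYR2, nearly touch at 0.99 for PLN to ATP2A2 and lie apart for ATP2A2 to SLC8A1 and for both shares.

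The wider calcium pathway was described with 8 lists of 84 other genes, 76 of them tested. Of these, 4 fell in limma and none rose, beside 1.48% and 0.181% of all tested genes in those directions, and their median log2 fold change was -0.05. CACNA1C, the pore of the L-type channel that triggers RYR2, went from 23.8, 31.7 and 17.8 TPM to 11.9, 7.05 and 7.74 TPM (log2 fold change -1.36, limma adjusted p = 0.0446). CMYA5, a protein of the dyad, the junction of surface and store membranes, went from 22.7, 31.4 and 31.3 TPM to 14.8, 10.9 and 11.8 TPM (-1.12, limma adjusted p = 0.0300). Both belong to the dyad list, in which 9 of 10 genes were tested and the median was -0.37. CACNA2D1, an accessory subunit of the same channel, had the lowest value of that list at -1.93 without passing (limma adjusted p = 0.0725), and its control libraries ranged from 6.74 to 23.7 TPM. TCAP, its most abundant gene, had 80.9 ± 19.5 TPM and 85.3 ± 16.3 TPM (SD, n = 3 each).

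Among 10 kinases, phosphatases and anchors acting on the store, 2 fell. The phosphatase subunit PPP2CA was the most abundant of them, at 74.5 ± 14.0 and 86.0 ± 6.97 TPM (SD, n = 3 each). CAMK2G went from 16.3, 13.1 and 17.3 TPM to 5.49, 5.53 and 5.02 TPM (log2 fold change -1.38, limma adjusted p = 0.0105). PDE3A, which breaks down cyclic AMP near the pump, went from 9.75, 12.5 and 13.9 TPM to 2.75, 3.46 and 3.81 TPM (-1.58, limma adjusted p = 0.0110). Both gaps between the groups were wider than the spread within either. CAMK2G and PDE3A each passed in all but 1 of the fits that left out a library, the exception being MYH7B ASO replicate 4 (limma adjusted p = 0.0616 and 0.0507). CMYA5 passed only when scrambled replicate 1 was the library left out, and CACNA1C in none of these fits (limma adjusted p from 0.0503 to 0.1815).

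In the other 6 lists no gene passed. Of the 12 tested partners of release, the calmodulin gene CALM3 was the most abundant, at 359 ± 52.5 and 436 ± 62.6 TPM (SD, n = 3 each), and the inositol trisphosphate receptors ITPR1 (-0.67) and ITPR2 (-0.92) lay below all controls in MYH7B ASO replicates 2 to 4, as did 14.1% of all tested genes. Both overlapped the controls in replicate 1, at 6.03 and 2.69 TPM. Among 9 tested uptake partners, PPP1R1A, an inhibitor of protein phosphatase 1, had a log2 fold change of 0.48, ATP2A3, a SERCA of other tissues, -0.78, and PPP1CB, a catalytic subunit of that phosphatase, -0.35. Of 8 tested surface pumps and exchangers, 6 were above 0 and the median was 0.32. The store-operated channels ORAI1 (0.60) and ORAI3 (0.49) lay above all controls in MYH7B ASO replicates 2 to 4, as did 7.11% of all tested genes, but ORAI3 in replicate 1, at 15.6 TPM, lay inside the control range. Of 12 calcium-binding proteins and chaperones of the reticulum lumen, 10 were below 0, with a median of -0.21 and CALR, calreticulin, at -0.31. The 11 mitochondrial calcium genes had a median of 0.14, with VDAC2 at 0.15, VDAC3 at -0.39 and the exchanger SLC8B1 at 0.28.

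**Figure D4:**
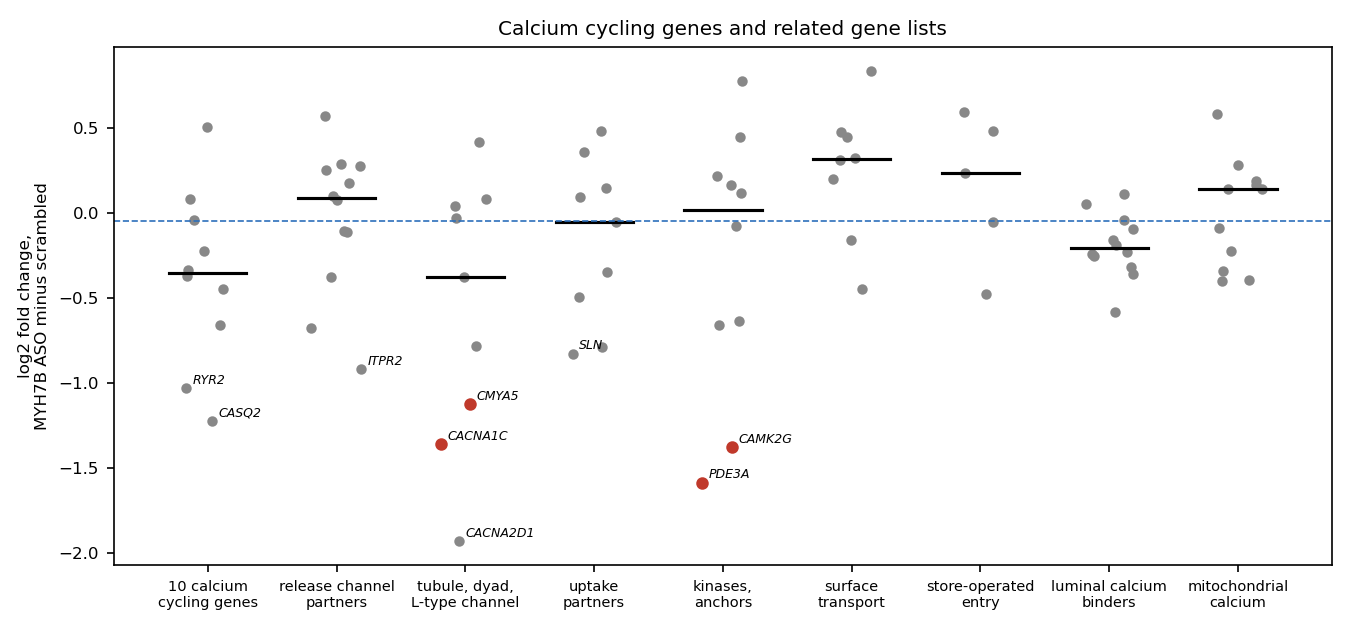
Log2 fold change (MYH7B ASO minus scrambled, 6 libraries) of each tested gene in the 10-gene set and the 8 pathway lists; black bars are list medians, red points passed limma at an adjusted p under 0.05 and the dashed line is the median of all tested genes (-0.04). The 4 red points lie in the dyad list and in the kinase and anchor list.

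The 10 genes differ widely in genomic span, from 4.23 kb (HRC) to 791.8 kb (RYR2), and span went with the direction of the difference over all genes. Among 12952 tested protein-coding genes, the median log2 fold change was 0.13 in 2399 genes under 10 kb and 0.04 in 3648 genes of 10 to 30 kb. It was -0.09 in 4271 genes of 30 to 100 kb, -0.25 in 2100 of 100 to 300 kb and -0.59 in 534 over 300 kb. In that last class 13.1% of genes fell in limma and none rose. The median deviation of that class from the scrambled mean was from -0.01 to 0.01 in the scrambled libraries and -0.60, -0.51 and -0.65 in MYH7B ASO replicates 2 to 4, with -0.64 in replicate 1. A gap was also present within each of 4 equal groups by exonic length. From the shortest to the longest group, the median was 0.066, 0.043, 0.023 and 0.001 for spans of 10 to 30 kb. Above 300 kb it was -0.37 (14 genes), -0.75, -0.60 and -0.58. Each group holds a range of lengths, so exonic length was not held fixed, and its part was not tested.

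Against their span classes, the 10 genes sorted otherwise than by the log2 fold change alone. RYR2, SLC8A1, TRDN and CAMK2D belong to the class over 300 kb. RYR2 lay 0.44 below its class median (a difference of -0.44), with 21.5% of the class lower, and SLC8A1 was close to it (-0.07, with 44.2% lower). TRDN and CAMK2D lay above that median, by 0.22 and 0.26. CASQ2, of 68.8 kb, was furthest from its class, at -1.13 with 1.24% of 4271 genes lower, and PLN, of 12.4 kb, was at -0.48 with 8.25% of 3648 genes lower. HRC (0.37) and ASPH (0.34) lay above their class medians, and JPH2 (-0.13) and ATP2A2 (0.05) near theirs. Of the genes named from the pathway lists, CACNA1C (727.2 kb), CACNA2D1 (497.4 kb), ITPR2 (496.7 kb), ITPR1 (354.5 kb) and PDE3A (315.1 kb) also belong to the class over 300 kb. The median of that class was -0.59, and 13.1% of it fell in limma. CMYA5, of 110.4 kb, and CAMK2G, of 62.1 kb, belong to classes with medians of -0.25 and -0.09. The part of gene span in these differences was not tested.

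**Figure D5:**
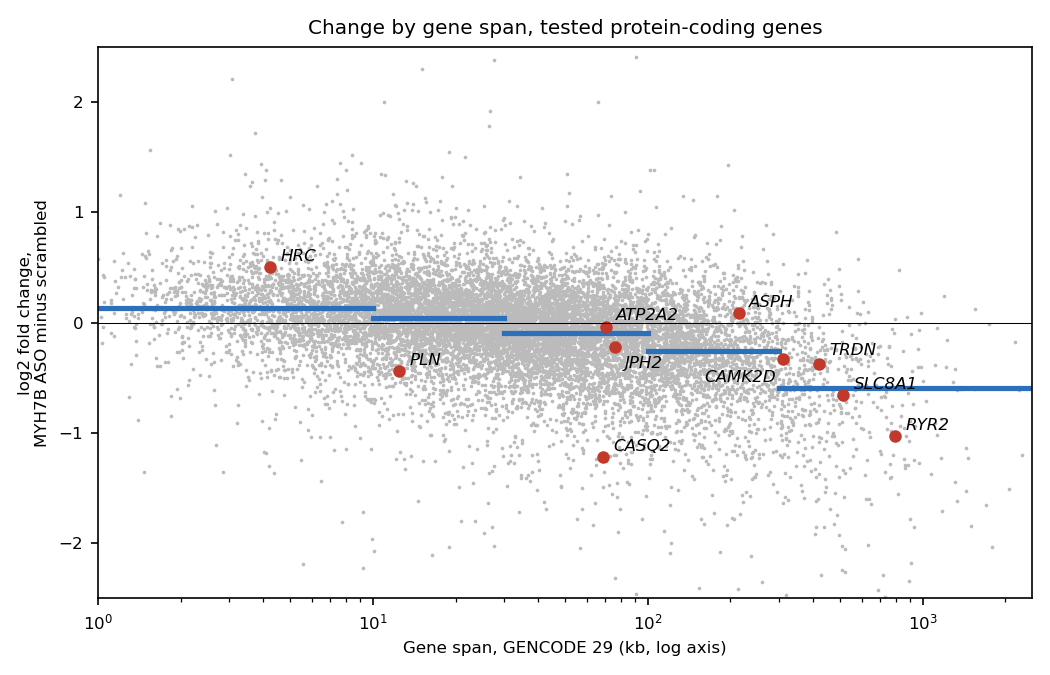
Log2 fold change (MYH7B ASO minus scrambled, 6 libraries) against gene span in GENCODE 29 (kb, log axis) for 12952 tested protein-coding genes (grey, of which 42 lie outside the axes), with the 10 calcium cycling genes in red and the median of each span class as a blue bar. The class medians step down from 0.13 under 10 kb to -0.59 over 300 kb, and CASQ2 and PLN sit below the bars of their classes.

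Outside the calcium lists, the genes most like RYR2 over the 6 libraries, among 7456 genes averaging 10 TPM or more, were ZNF808 (Pearson r = 0.999), KLHL31 (0.997) and RNF115 (0.993). Those most like PLN were ZNF808 (0.989), DGLUCY (0.983) and PPP2R3A (0.982). ZNF808 had 11.8 TPM with the scrambled ASO and 9.35 TPM with the MYH7B ASO, KLHL31 29.6 and 18.9 TPM, and PPP2R3A 21.8 and 11.3 TPM. These are descriptions over 6 libraries in 2 groups, chosen as the highest of many, and the libraries share the TPM scaling.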

How the data were processed

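RNA sequencing of poly-A RNA gave 7 libraries. The deposited table holds TPM made by the authors, and TPM keeps no depth, so the depth of the libraries is unknown and counting error is not shown. The authors' deposited comparison table holds a mean normalized count (a signal), shrunken log2 fold changes and their standard errors, a score for the test, and raw and adjusted p-values. DESeq2 and the build GRCh38.p13 are named in the submitters' processing notes; the aligner, the quantifier and the libraries behind that comparison are not given in the sources used here.

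Genes averaging 1 TPM or more entered limma 3.58.1 under R 4.3.3 (lmFit, eBayes with trend) on log2(TPM + 1), with Benjamini-Hochberg adjustment over all tested genes and calls at an adjusted p under 0.05. Fold changes are on that scale, which understates changes of low genes. The script was tested on simulated data. The column of MYH7B ASO replicate 1 fills 58721 positions; its values were assigned to the sorted gene identifiers of GENCODE 29, which lists as many genes, and served as an alternative over 7 libraries. That order points to another annotation than that of the other columns, so its levels carry that difference. In deposited order its median correlation with the others was 0.408.

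The 10 genes and all lists were chosen with earlier results of these data known, and no test over a list was made. All 10 genes are named. From each pathway list the text names called genes, the gene with the highest mean TPM, and the 2 with the largest change among those whose groups did not overlap. Some genes under this rule are not reported here. For likeness, the 3 genes with the highest correlation to RYR2 and to PLN are named. Alternatives covered pseudocounts, filters, scalings, variance settings, replicate blocks and each library left out. Tables and plots used matplotlib 3.10.9, pandas 2.3.3 and numpy 2.4.6 under Python 3.11.15.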

Additional observations from a re-analysis of the deposited data

How the results depend on the processing

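The main fit made 265 calls over all tested genes. Separate fits made 40 calls with no filter on low values, 141 after centring on cardiomyocyte markers, 150 with no intensity trend and 170 over 7 libraries. Those with 1 library left out made 53 to 149. The other fits without a replicate block made from 215 (pseudocount of 5) to 310 (minimum mean of 5 TPM). How many of these calls were the same genes was not counted. The share of calls that were lower was 89.1%, against 75.9% after that centring and 78.6% after quantile normalization. The centring moved the median of all genes by 0.12, from -0.04 to 0.08. Of the 10 calcium cycling genes, 1 was called with a minimum mean of 5 TPM and 1 with sample weights (RYR2 both times), and 0 otherwise. The number of genes of the pathway lists called lower was 4 in the main fit. It was 5 with a minimum mean of 5 TPM, 0 with no filter, 2 with no intensity trend and 0 to 3 with 1 library left out. CACNA1C, called in 5 of 20 alternatives, also missed with a pseudocount of 5 (limma adjusted p = 0.0608), median-ratio rescaling (0.0607), quantile normalization (0.0705) and mitochondrially encoded genes removed (0.0608), and CMYA5, called in 9, after centring (0.0642). ATP2A2 turned to 0.021 after median-ratio rescaling and 0.086 after centring, and ranged from -0.13 to 0.048 with 1 library left out, above 0 without replicate 2 of either group. Over 7 libraries, ASPH turned to -0.060, TCAP to -0.42 and VDAC2 to -0.12. TCAP ranged from -0.088 to 0.26 with 1 library left out, below 0 without scrambled ASO replicate 1 (-0.088) or MYH7B ASO replicate 2 (-0.062). The median of the dyad list moved from -0.37 to -0.78 with a minimum mean of 5 TPM and to -0.17 without scrambled ASO replicate 1, and that of the mitochondrial list from 0.14 to -0.09 and -0.06. MYH7B missed the threshold over 7 libraries (limma adjusted p = 0.0525), with no filter (0.0779) and without MYH7B ASO replicate 4 (0.0618). Among the 10 genes, the genes named from the pathway lists and MYH7B, no other sign turned outside the replicate blocks; the genes most like RYR2 and PLN and SLC8A1-AS1 were not rerun. The cause of these moves was not tested. The depth of the libraries is unknown, so what it limits cannot be given.

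The replicate numbers in titles and in descriptions pair the libraries in different ways. Same-numbered libraries had deviations that correlated at 0.076 and 0.11 by title and at -0.073 and -0.039 by description. All pairs not matched by title lay from -0.073 to 0.041. Whether either number marks a shared origin was not tested, and correlations this weak over so few libraries cannot tell. With the replicate block by title, by description, or by title over 7 libraries, limma called 0 genes in all. That includes 0 of the 10 and 0 of the pathway lists, while 1718, 1096 and 1773 genes had an unadjusted p under 0.05. In these fits only same-numbered pairs carry the comparison, and very little is left to measure spread. The lack of calls therefore cannot show whether differences vanish within pairs, and its cause was not tested. With the block by description ASPH was -0.025 and TCAP -0.24. With the block over 7 libraries ASPH was -0.12, TCAP -0.52, CALR 0.10 and VDAC2 -0.17. For the log2 ratios, the block by title over 2 pairs was added after the data were seen, and gave -0.30 for PLN to ATP2A2, 0.52 for ATP2A2 to SLC8A1 and -0.54 for CASQ2 to RYR2.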

Other observations

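Several relatives of the calcium cycling genes were too low to be tested, with a mean under 1 TPM over the 6 libraries. The skeletal muscle receptor RYR1 and the skeletal pump ATP2A1 reached at most 0.424 and 1.301 TPM in any library. RYR3, a receptor of other tissues, had 2.29, 0.64 and 1.02 TPM with the scrambled ASO and 0.38, 0.18 and 0.19 TPM in MYH7B ASO replicates 2 to 4, with 0.10 TPM in replicate 1. CAV3, the muscle caveolin that shapes the tubule membrane, had 1.01, 1.40 and 2.47 TPM with the scrambled ASO and 0.09, 0.40 and 0.08 TPM in MYH7B ASO replicates 2 to 4, with 0.31 TPM in replicate 1. For both genes every treated library lay below every control, as did 10.2% of all tested genes over 7 libraries. Levels this near the floor do not make that a result about these genes. The authors' deposited table gave RYR3 -0.71 at an adjusted p-value of 0.0234, and gave CAV3 no adjusted p-value. The micropeptide genes MRLN and STRIT1, whose products act on the SERCA pump, were listed at 0 in all 3 scrambled libraries and stayed under 0.50 TPM elsewhere. STRIT1 went the other way, above 0 in MYH7B ASO replicates 2 to 4, but it was 0 in replicate 1.

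FKBP1B, the stabiliser of RYR2, made up 3.62%, 3.90% and 3.93% of the summed TPM of FKBP1A and FKBP1B with the scrambled ASO, and 4.99%, 4.74% and 5.92% in MYH7B ASO replicates 2 to 4. Replicate 1 stood apart at 12.0%. JPH2 made up 81.2%, 83.0% and 80.5% of junctophilin TPM from JPH1 and JPH2 in the controls and 80.1%, 79.3% and 76.0% in the treated libraries, so JPH2 was the main form in both groups. Among the 13 measures examined for a library far from the rest of a group of 4, namely the 10 genes and 3 ratios in the MYH7B ASO group, no library passed the limit of Dixon's test.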
